A study of Mus musculus with 8 samples.

Results

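The genes described here encode the classical axon guidance ligands and their receptors: the semaphorins and their plexin and neuropilin receptors, the ephrins and Eph receptors, the Slits and Robos, and the netrins and Unc5 receptors. They were taken from an Illumina mouse BeadChip by gene symbol, which matched 95 probes for 63 genes, and a probe was kept where its signal exceeded the array's negative controls (detection p-value under 0.05) on 2 or more of the 8 arrays. That left 57 probes for 45 genes, of 25697 probes on the array and 14502 that met the same detection rule. The symbol and the detection rule chose them. A probe kept only through the groups where it was bright had to differ from the rest, so the counts below describe the kept probes and do not stand for all 63 genes.

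The cells were E14TG2a, an established line of mouse embryonic stem (ES) cells, and each of the 4 groups had 2 arrays. The ES group was undifferentiated, kept in serum medium with leukaemia inhibitory factor. The other groups shared a serum-poor differentiation medium with N2, B27, thioglycerol and ascorbic acid and were kept for 11 days in all: the IDE2 group received 1 uM IDE2, a small molecule used to drive ES cells towards endoderm, for all 11 days, the IDE2+FGF2 group received 1 uM IDE2 for 6 days and then 500 ng/ml of fibroblast growth factor 2 for 5 days, and the IDE2+FGF10 group received 1 uM IDE2 for 6 days and then 25 ng/ml of fibroblast growth factor 10 for 5 days. No group was kept 11 days without IDE2, so a difference from ES cannot be told apart from time and culture medium. The FGF doses differ, so a difference between the FGF groups cannot be told apart from dose. No group had IDE2 withdrawn after 6 days without an FGF added. A difference of either FGF group from IDE2 thus cannot be told apart from the loss of IDE2. The labels do not say whether the arrays of a group came from separate cultures, so the spread behind the p-values may be technical. That spread is how far the 2 arrays of a group lie apart, pooled over all 4 groups. It is drawn towards the spread of all tested probes, so a p-value also depends on arrays outside its comparison.

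Guidance cues are secreted or membrane-bound proteins that attract or repel a growing axon through receptors on its tip. Semaphorins bind plexins, with neuropilins as co-receptors for the secreted class; ephrins are membrane-anchored ligands of the Eph receptor tyrosine kinases and can signal back into the cell that bears them; Slits bind Robo receptors and netrins bind Dcc or Unc5 receptors. The same proteins act outside the nervous system, where they shape boundaries between cell groups, blood vessels and epithelia in the early embryo.

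The arrays detected between 11609 and 13422 probes (45.2% to 52.2%), and the median signal before normalization lay between 117.3 and 175.4. Of the 57 guidance probes, 30 and 25 were detected on the ES arrays, 42 and 46 with IDE2, 44 and 50 with IDE2+FGF2, and 38 and 40 with IDE2+FGF10. Replicates correlated at 0.988, 0.955, 0.962 and 0.989 across all tested probes in that group order, and 10 of the 57 guidance probes lay at least 2-fold apart between the IDE2+FGF2 arrays, against 0, 2 and 2 in the ES, IDE2 and IDE2+FGF10 groups. As a check of the labels, 10, 9 and 10 of 11 pluripotency genes were lower than in ES with IDE2, IDE2+FGF2 and IDE2+FGF10, and Pou5f1, the gene of Oct4, was 36.6-fold, 7.18-fold and 27.8-fold lower. The labels name no cell type for the differentiated groups. Of 8 tested endoderm and epithelium genes of 13 listed, 7, 4 and 5 were higher than ES and none lower, with Foxa1, Foxa2, Gata4 and Afp not detected on 2 arrays. Of 12 tested mesenchyme genes of 14 listed, 10, 8 and 9 were higher and 1 lower in each group. Over all tested probes, 22.6%, 16.5% and 21.2% were higher than ES in that order and 21.9%, 16.5% and 22.1% lower. Of 14 listed neuronal genes, 9 could be tested, and Tubb3, Neurod1, Rbfox3, Nefl and Snap25 were not detected on 2 arrays. With IDE2 3 were higher and 1 lower, with IDE2+FGF2 3 were higher and none lower, and with IDE2+FGF10 2 were higher and 1 lower. That is 44.4%, 33.3% and 33.3% of the tested neuronal genes, beside 44.4%, 33% and 43.3% of all tested probes. These shares were near or below that of the array as a whole. In bulk samples like these, fewer cells of a type and less RNA per cell cannot be told apart.

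Levels below are log2 intensities after background correction and quantile normalization. A change is the difference of group means ± its standard error from a limma fit of all 8 arrays, and p-values were adjusted over all 14502 probes. A probe passed the test at an adjusted p under 0.05. Where neither array of the dimmer group detected a probe, the fold is a lower bound against the dimmest detected level and is written "at least". It is a bound under this processing only. With 2 arrays a group, the number of arrays limits the precision.

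Against ES, 32 of the 57 guidance probes passed the test with IDE2 (23 higher, 9 lower), which is 56.1% of them beside 44.4% of all tested probes (22.6% higher, 21.9% lower). With IDE2+FGF2 28 passed (22 higher, 6 lower), 49.1% beside 33% of all probes (16.5% each way), and with IDE2+FGF10 24 passed (19 higher, 5 lower), 42.1% beside 43.3% (21.2% higher, 22.1% lower), so the last share is near that of the array as a whole. Of the 57 probes, 23 were detected on neither ES array, and none was detected in ES alone. The median log2 change of the guidance probes was 0.30, 0.40 and 0.39 in the same order, beside -0.0057, -0.017 and -0.0077 over all tested probes, and 0.00, 0.01 and 0.00 with undetected groups set at their bound. These 3 comparisons share the ES arrays. The ligands comprised 28 of the 45 genes, of which 11 rose and 6 fell with IDE2 at the brightest probe, and the receptors comprised 17, of which 6 rose and 2 fell.

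**Figure D1:**
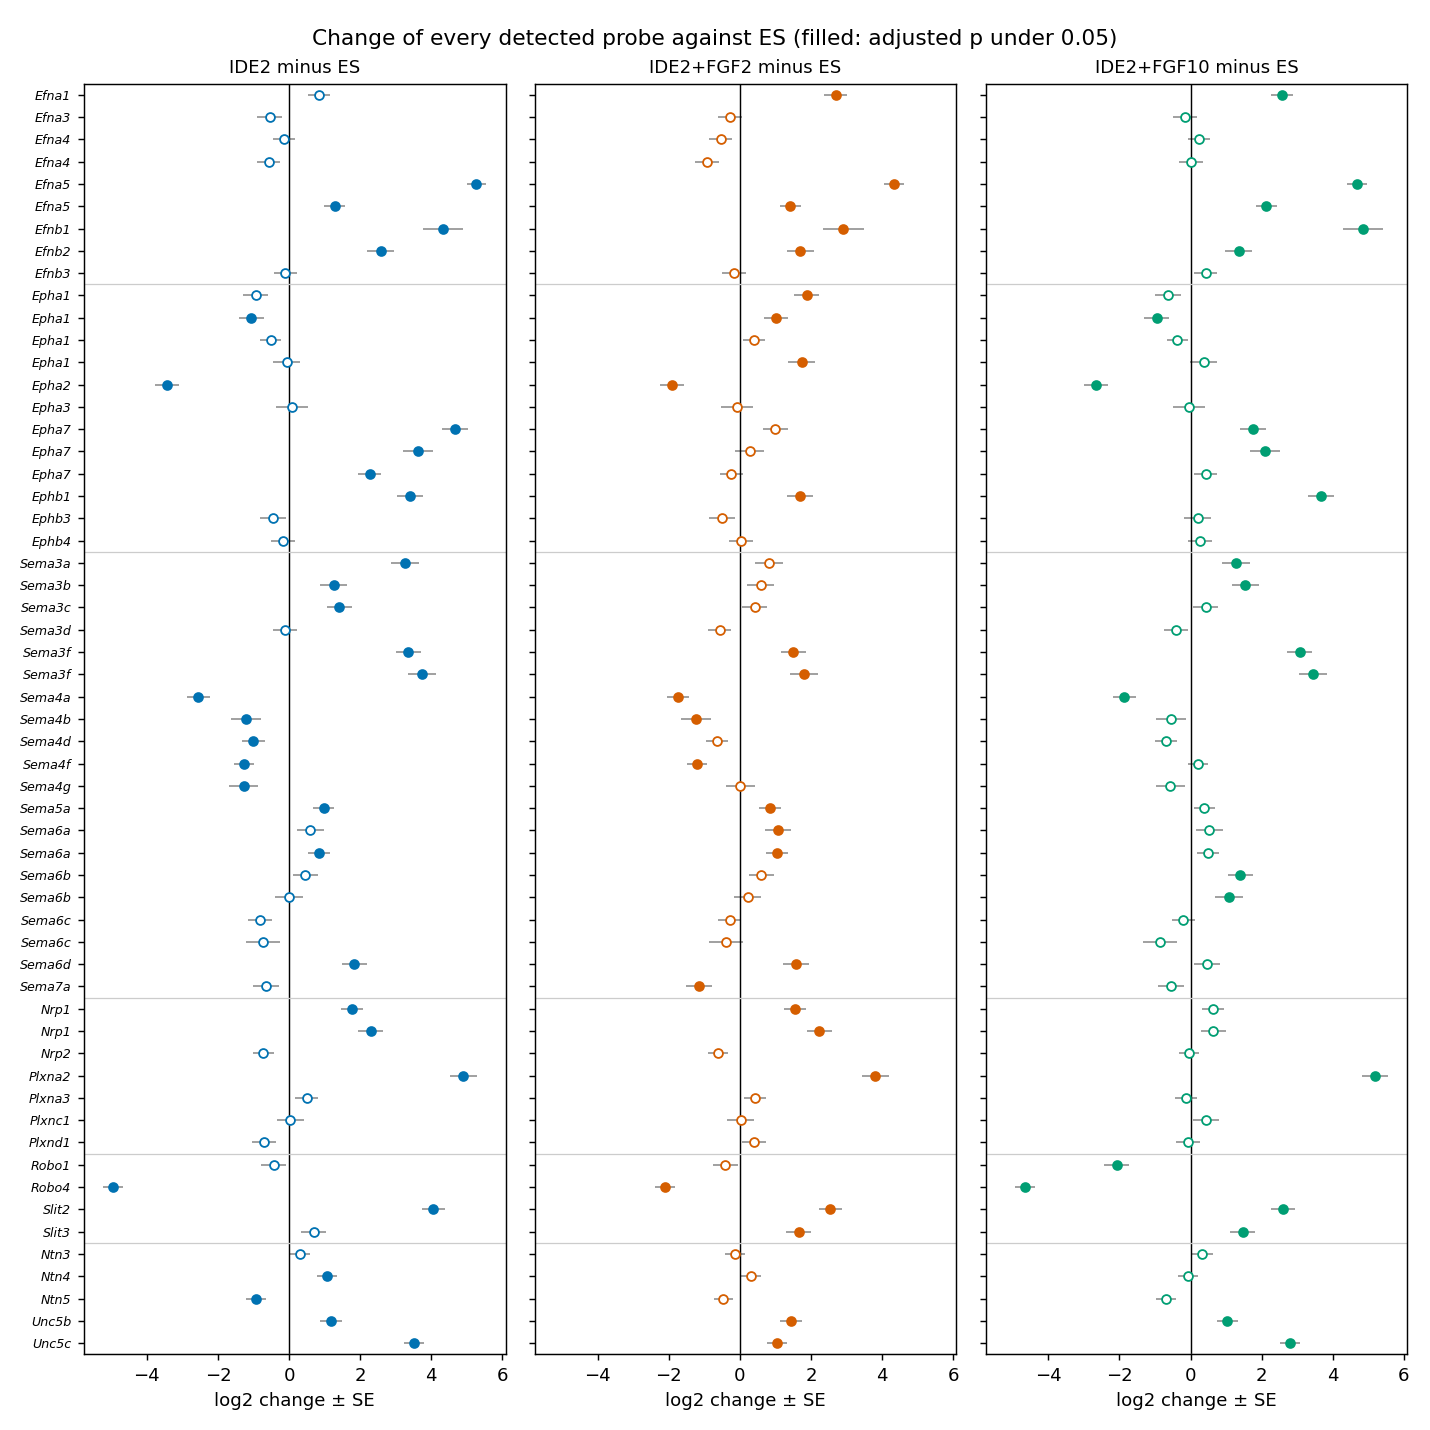
Log2 change ± SE (horizontal axis) of all 57 guidance probes against ES in the IDE2, IDE2+FGF2 and IDE2+FGF10 groups, 2 arrays each; a filled point passed the test and an open point did not, and grey lines part the families. The widest changes belong to Efna5 and Plxna2 upward and Robo4 downward.

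Among the genes with the widest changes against ES, Efna5, Efnb1 and Plxna2 rose in each differentiated group and Robo4 fell in each. Their promoter sequences are shown because these 4 genes are among those with the widest changes in level. Each runs from 250 bases before to 50 bases after the start of the gene, as RefSeq gives it for GRCm38.p6: Efna5 at chr17:62881268-62881567 (minus strand), Efnb1 at chrX:99135811-99136110 (plus strand), Plxna2 at chr1:194619579-194619878 (plus strand) and Robo4 at chr9:37401722-37402021 (plus strand). Capitals mark matches on either strand to a searched motif. The GC box was searched as GGGCGG, so a match on the other strand reads as its reverse complement. The TATA element was searched as TATAAA. The core of ETS factor sites was searched as CCGGAA. The AP-1 site was searched as TGANTCA, and in the windows shown no match overlapped another.
Efna5: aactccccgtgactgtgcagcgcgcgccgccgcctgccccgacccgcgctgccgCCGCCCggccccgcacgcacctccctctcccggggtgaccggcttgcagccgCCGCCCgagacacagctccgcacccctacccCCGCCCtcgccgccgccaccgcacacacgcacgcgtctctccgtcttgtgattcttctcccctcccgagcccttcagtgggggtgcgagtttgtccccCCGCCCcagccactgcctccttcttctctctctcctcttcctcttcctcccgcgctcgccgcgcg
Efnb1: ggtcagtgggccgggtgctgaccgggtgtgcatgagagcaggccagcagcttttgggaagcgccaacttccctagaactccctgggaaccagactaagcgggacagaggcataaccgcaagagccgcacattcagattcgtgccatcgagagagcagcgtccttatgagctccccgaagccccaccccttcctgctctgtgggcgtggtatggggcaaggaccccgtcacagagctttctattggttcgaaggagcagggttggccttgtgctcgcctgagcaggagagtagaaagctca
Plxna2: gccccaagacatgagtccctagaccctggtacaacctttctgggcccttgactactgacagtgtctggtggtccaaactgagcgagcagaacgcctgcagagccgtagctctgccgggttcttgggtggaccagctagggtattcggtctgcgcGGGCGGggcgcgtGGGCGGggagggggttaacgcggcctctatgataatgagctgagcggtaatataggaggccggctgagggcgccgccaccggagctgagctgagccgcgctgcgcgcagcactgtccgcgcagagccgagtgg
Robo4: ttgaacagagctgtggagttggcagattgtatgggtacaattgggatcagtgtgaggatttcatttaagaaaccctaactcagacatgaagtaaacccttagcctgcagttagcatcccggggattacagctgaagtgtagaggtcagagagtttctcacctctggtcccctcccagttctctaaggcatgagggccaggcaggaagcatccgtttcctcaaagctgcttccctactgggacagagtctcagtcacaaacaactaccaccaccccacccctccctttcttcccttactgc
The Efna5 window held 4 GC boxes and the Plxna2 window 2, and neither held any of the other motifs. None of the 4 motifs was found in the Efnb1 and Robo4 windows. G and C made up 73.3% of the bases for Efna5, 64.7% for Plxna2, 59.7% for Efnb1 and 50.3% for Robo4, beside a median of 52.7% over the 32851 RefSeq promoter windows of that length. A GC box was in 35.7% of those windows, a TATA box in 13.6%, an ETS core in 14.9% and an AP-1 site in 7.81%. The table held 53 windows for 41 of the 45 guidance genes, of which 37 held a GC box, 2 a TATA box, 4 an ETS core and 2 an AP-1 site. These matches describe letters only, and binding was not measured.

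Among the ephrins, 4 of 7 genes differed from ES in at least 1 group, and Efna5, Efnb1, Efnb2 and Efna1 were higher there. Over the whole array, 60.9% of the tested probes passed in at least 1 of the 3 comparisons with ES. The share of ephrin genes that differed is near that, although genes are set against probes here. All 4 were higher, beside 30.7% of the tested probes that were higher in at least 1 comparison. Whether the ephrins depart from the array in this was not tested. Efna5, a lipid-anchored ephrin known for setting topographic maps of retinal axons, stood at 7.60 and 7.59 on the ES arrays, 12.74 and 12.99 with IDE2, 11.86 and 12.004 with IDE2+FGF2, and 12.29 and 12.26 with IDE2+FGF10. At this probe every differentiated array lay far above both ES arrays, with IDE2 the highest. The change was 5.27 ± 0.27 (38.5-fold, adjusted p = 1.08e-06) with IDE2, 4.34 ± 0.27 (20.2-fold, 3.64e-06) with IDE2+FGF2 and 4.68 ± 0.27 (25.6-fold, 1.94e-06) with IDE2+FGF10. The dimmer Efna5 probe also passed in each comparison, undetected in ES and at least 1.79-fold, 1.96-fold and 3.23-fold higher, the first of which missed the threshold without ES replicate 1 (adjusted p = 0.0785), as did the second. At that dimmer probe IDE2 was not the highest, with group means of 6.47 with IDE2, 6.61 with IDE2+FGF2 and 7.33 with IDE2+FGF10. The promoter of Efna5 printed above is the most GC-rich of the 4.

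Efnb1, a transmembrane ephrin that also signals into its own cell, stood at 5.02 and 4.86 on the ES arrays, 9.67 and 8.87 with IDE2, 8.95 and 6.75 with IDE2+FGF2, and 9.85 and 9.72 with IDE2+FGF10. It was undetected in ES and detected on every other array, and the IDE2+FGF2 arrays lay far apart. It was at least 12.4-fold higher with IDE2 (4.33 ± 0.57, adjusted p = 0.000165), at least 4.66-fold with IDE2+FGF2 (2.91 ± 0.57, 0.00278) and at least 17.8-fold with IDE2+FGF10 (4.85 ± 0.57, 8.06e-05). The IDE2+FGF2 change was 1.81 without replicate 1 of that group and 4.01 without replicate 2, and it passed the test both ways. Efnb2, the transmembrane ephrin that marks arterial endothelium, stood at 5.29 and 5.59 in ES, 7.62 and 8.42 with IDE2, 7.59 and 6.68 with IDE2+FGF2, and 6.64 and 6.93 with IDE2+FGF10. It too was undetected in ES, and no differentiated array overlapped the ES arrays. Efnb2 was at least 5.22-fold higher with IDE2 (2.58 ± 0.38, adjusted p = 0.000355), at least 2.84-fold with IDE2+FGF2 (1.70 ± 0.38, 0.00602) and at least 2.23-fold with IDE2+FGF10 (1.35 ± 0.38, 0.0143). The call with IDE2+FGF2 was lost without ES replicate 1 (adjusted p = 0.0592) or IDE2+FGF2 replicate 1 (0.0604), and that with IDE2+FGF10 without ES replicate 1 (0.102) or IDE2+FGF10 replicate 2 (0.0968).

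Efna1, a ligand of Epha2, was the only 1 of the 7 ephrins with its highest group mean with IDE2+FGF2, each taken at its brightest probe. It stood at 5.11 and 4.75 in ES, 5.89 and 5.66 with IDE2, 7.98 and 7.29 with IDE2+FGF2, and 7.62 and 7.39 with IDE2+FGF10, so both FGF groups lay above IDE2 and IDE2 above ES without overlap. It was at least 4.0-fold higher than ES with IDE2+FGF2 (2.70 ± 0.32, adjusted p = 0.000136) and at least 3.66-fold with IDE2+FGF10 (2.57 ± 0.32, 0.000115), while the change with IDE2 alone, 0.84 ± 0.32, missed the threshold (0.051). The FGF groups did not differ from each other beyond their spread (-0.13 ± 0.32, adjusted p = 0.84). Efna3, Efna4 and Efnb3 passed in no comparison, and the 2 Efna4 probes ranged from 7.76 to 9.21 over the 8 arrays.

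Of 7 Eph receptor genes, Epha7 and Ephb1 rose, Epha2 fell and Epha1 moved by medium. Epha7, a receptor for A-type ephrins expressed in the developing neural tube and cortex, stood at 5.93 and 5.29 in ES, 9.84 and 10.73 with IDE2, 6.45 and 6.77 with IDE2+FGF2, and 7.23 and 7.50 with IDE2+FGF10 at its brightest probe. The IDE2 arrays stood well above every other array, and the FGF arrays lay between IDE2 and ES. With IDE2 the level was 25.6-fold above ES (4.68 ± 0.36, adjusted p = 7.28e-06; detected on 1 of 2 ES arrays), with IDE2+FGF10 3.37-fold (1.75 ± 0.36, 0.00272), and with IDE2+FGF2 the change of 1.0 ± 0.36 did not pass. The other 2 Epha7 probes, undetected in ES, rose with IDE2 as well, by at least 9.92-fold and at least 3.11-fold. With IDE2+FGF10, 1 of them rose by at least 3.44-fold and the other did not pass.

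Ephb1, a receptor for B-type ephrins that turns retinal axons back at the optic chiasm, stood at 4.67 and 5.12 in ES, 8.27 and 8.33 with IDE2, 7.15 and 6.02 with IDE2+FGF2, and 8.54 and 8.56 with IDE2+FGF10. It was undetected in ES, and the IDE2+FGF2 arrays lay between ES and the remaining groups. The level was at least 6.35-fold above ES with IDE2 (3.41 ± 0.37, adjusted p = 5.42e-05), at least 1.93-fold with IDE2+FGF2 (1.69 ± 0.37, 0.00542, but 0.0629 without ES replicate 1) and at least 7.56-fold with IDE2+FGF10 (3.66 ± 0.37, 3.40e-05).

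Epha2, a receptor for Efna1 that is abundant in ES cells and epithelia, stood at 10.69 and 10.62 in ES, 7.50 and 6.95 with IDE2, 8.37 and 9.13 with IDE2+FGF2, and 8.03 and 7.94 with IDE2+FGF10. Both ES arrays lay above every differentiated array and the IDE2 arrays were lowest. Epha2 was 10.7-fold lower with IDE2 (-3.43 ± 0.33, adjusted p = 2.69e-05), 3.74-fold lower with IDE2+FGF2 (-1.90 ± 0.33, 0.00144) and 6.35-fold lower with IDE2+FGF10 (-2.67 ± 0.33, 0.000117). Epha1, the founding member of the Eph family, stood at 7.82 and 7.49 in ES, 7.21 and 6.23 with IDE2, 9.30 and 9.77 with IDE2+FGF2, and 7.03 and 7.02 with IDE2+FGF10. The IDE2+FGF2 arrays alone lay above ES, by 3.68-fold (1.88 ± 0.36, adjusted p = 0.00244). Of the 4 Epha1 probes, 3 rose with IDE2+FGF2. Of these 3, 1 dimmer probe rose by 1.02 (adjusted p = 0.0441). The same probe fell with IDE2 (-1.06 ± 0.35, 0.0287) and with IDE2+FGF10 (-0.95 ± 0.35, 0.0459). Its calls in all 3 groups were lost without either ES array among other settings. Epha3, Ephb3 and Ephb4 passed in no comparison.

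**Figure D2:**
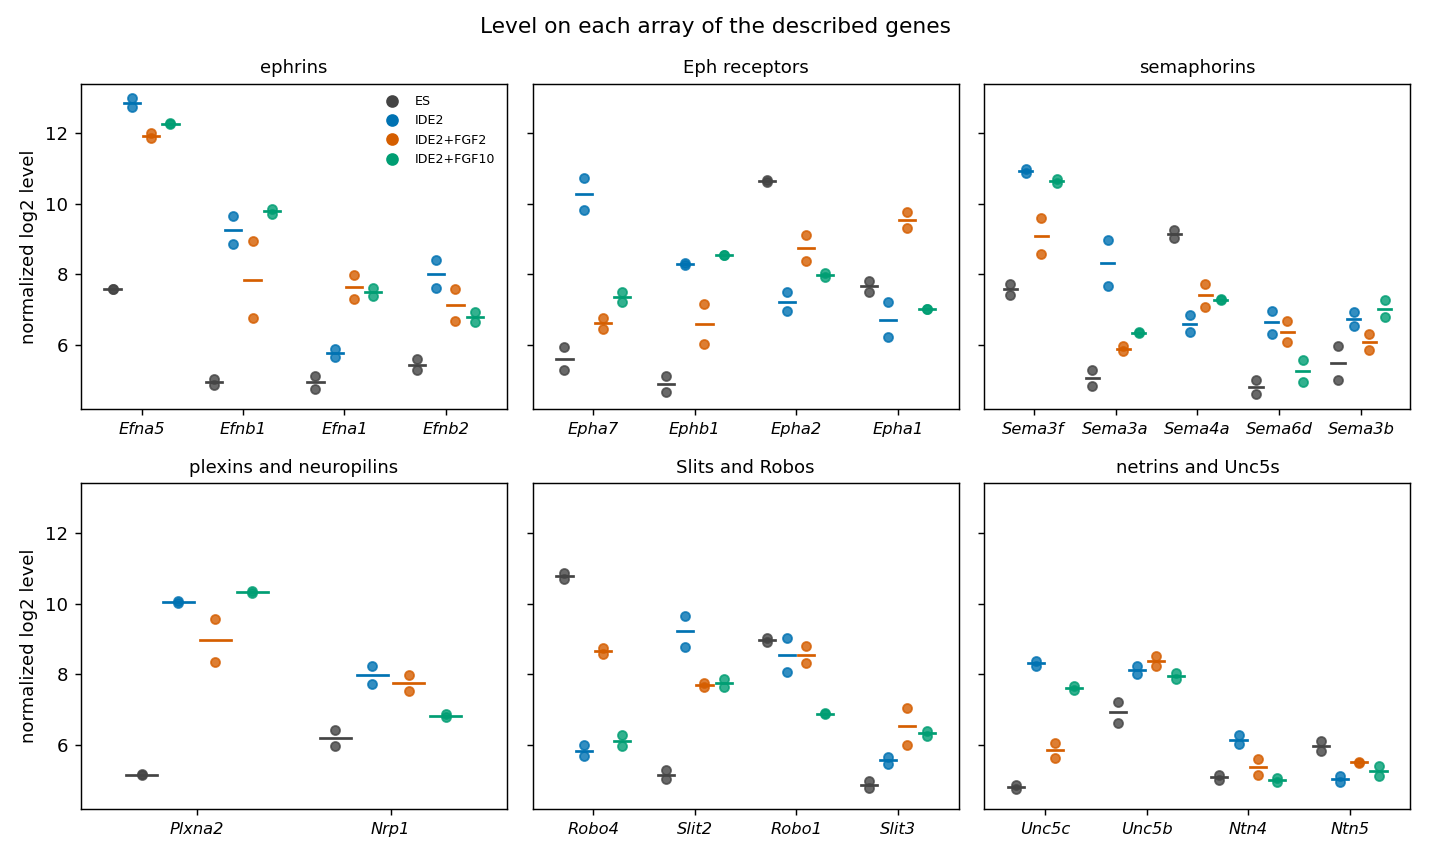
Normalized log2 level (vertical axis) on each of the 8 arrays of the 23 genes with the widest range within each family, at their brightest probe; each point is an array, colours mark the 4 groups and a short line the group mean of 2 arrays. Efna5, Efnb1, Plxna2 and Slit2 stand lowest in ES, and Robo4, Epha2 and Sema4a highest.

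With IDE2, semaphorins of class 3 and class 4 were called in opposite directions, beside 22.6% of all tested probes higher and 21.9% lower, and the difference between the classes was not tested. Of 5 class 3 genes, the secreted semaphorins that signal through neuropilins, 4 rose (Sema3a, Sema3b, Sema3c and Sema3f) and Sema3d did not pass (-0.10), whereas all 5 detected class 4 genes, transmembrane semaphorins (Sema4a, Sema4b, Sema4d, Sema4f and Sema4g), fell. The class 4 changes with IDE2 ran from -2.55 to -1.0 and the class 3 changes from -0.10 to 3.35, with medians of -1.26 and 1.42. Sema3c was kept only because both IDE2 arrays detected it, so its higher level with IDE2 follows in part from the detection rule. With IDE2+FGF2, 1 of 5 class 3 genes rose and 3 of 5 class 4 genes fell, beside 16.5% of all tested probes each way. With IDE2+FGF10, 3 of 5 class 3 genes rose and 1 of 5 class 4 genes fell, beside 21.2% higher and 22.1% lower. The counts of 1 of 5 are near the share of the array as a whole. The calls of Sema4b, Sema4d and Sema4g with IDE2 were each lost without either ES array or without IDE2 replicate 2, so the fall of class 4 held in every setting for Sema4a and Sema4f only. In class 3 the IDE2 calls of Sema3a and Sema3f held in every setting, while that of Sema3c was lost when replicate 2 of ES or of IDE2 was left out (adjusted p = 0.0615 and 0.0562), and that of Sema3b as given below.

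Sema3f, which repels axons through neuropilin-2, stood at 7.42 and 7.74 in ES, 10.87 and 10.99 with IDE2, 9.60 and 8.57 with IDE2+FGF2, and 10.59 and 10.71 with IDE2+FGF10. All differentiated arrays lay above ES, with the IDE2+FGF2 pair lower than the other groups. The level was 10.2-fold above ES with IDE2 (3.35 ± 0.35, adjusted p = 4.37e-05), 2.83-fold with IDE2+FGF2 (1.5 ± 0.35, 0.00759, but 0.0758 without ES replicate 1) and 8.41-fold with IDE2+FGF10 (3.07 ± 0.35, 7.28e-05). The other kept Sema3f probe changed by 3.75, 1.81 and 3.45 and passed in each comparison. Another Sema3f probe was detected on 1 array only and was not tested.

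Sema3a, the founding collapsin that acts through neuropilin-1 and A-type plexins, stood at 4.85 and 5.29 in ES, 7.68 and 8.97 with IDE2, 5.82 and 5.96 with IDE2+FGF2, and 6.34 and 6.36 with IDE2+FGF10. It was undetected in ES and highest with IDE2, where the arrays themselves differed by more than 2-fold. The level was at least 6.45-fold above ES with IDE2 (3.26 ± 0.39, adjusted p = 9.86e-05; 3.90 without IDE2 replicate 1 and 2.61 without IDE2 replicate 2). It was at least 1.64-fold above ES with IDE2+FGF10 (1.28 ± 0.39, 0.0215, and 0.149, 0.0866 or 0.0916 without ES replicate 1 or IDE2+FGF10 replicate 1 or 2), and with IDE2+FGF2 the change of 0.82 ± 0.39 did not pass (0.134).

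Sema4a, a transmembrane semaphorin studied in immune cells and retina, stood at 9.26 and 9.03 in ES, 6.83 and 6.35 with IDE2, 7.72 and 7.09 with IDE2+FGF2, and 7.27 and 7.29 with IDE2+FGF10. Both ES arrays lay above all others. It was 5.86-fold lower with IDE2 (-2.55 ± 0.32, adjusted p = 0.000117), 3.35-fold lower with IDE2+FGF2 (-1.74 ± 0.32, 0.00184) and 3.64-fold lower with IDE2+FGF10 (-1.86 ± 0.32, 0.00083).

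Sema6d, a transmembrane ligand of Plxna1, stood at 5.00 and 4.60 in ES, 6.32 and 6.95 with IDE2, 6.08 and 6.67 with IDE2+FGF2, and 5.57 and 4.95 with IDE2+FGF10. It was undetected in ES and with IDE2+FGF10, and the IDE2 and IDE2+FGF2 arrays lay above both of those groups. This rests on a single probe, since the other Sema6d probes were detected on 0 arrays and were not tested. Sema6d was at least 2.00-fold above ES with IDE2 (1.84 ± 0.36, adjusted p = 0.002) and at least 1.67-fold with IDE2+FGF2 (1.58 ± 0.36, 0.00648, but 0.0696 without ES replicate 2 and 0.0515 without IDE2+FGF2 replicate 2). Sema3b, a secreted semaphorin of class 3, stood at 5.98 and 5.00 in ES, 6.95 and 6.54 with IDE2, 6.31 and 5.85 with IDE2+FGF2, and 7.28 and 6.78 with IDE2+FGF10. Its ES arrays lay almost a log2 unit apart, and IDE2+FGF2 overlapped them. The other Sema3b probes were detected on 1 array or on 0 arrays and were not tested. Sema3b passed with IDE2 (2.38-fold, 1.25 ± 0.38, adjusted p = 0.0195) and IDE2+FGF10 (2.90-fold, 1.54 ± 0.38, 0.00695), and both calls were lost without ES replicate 2 (0.211 and 0.0958), the first also without IDE2 replicate 1 (0.0974) and the second without IDE2+FGF10 replicate 1 (0.07). Sema3c, which guides cells of the cardiac outflow tract, was the only guidance probe detected in a single group, the IDE2 group, at 5.55 and 6.44 beside 4.50 to 5.35 on the other arrays.

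Of 6 plexin and neuropilin genes, Plxna2 and Nrp1 differed from ES. Plxna2, a receptor for class 6 and, with neuropilins, class 3 semaphorins, stood at 5.16 and 5.13 in ES, 10.07 and 10.03 with IDE2, 9.57 and 8.35 with IDE2+FGF2, and 10.36 and 10.29 with IDE2+FGF10. It was undetected in ES and bright on every other array. The level was at least 21.3-fold above ES with IDE2 (4.90 ± 0.37, adjusted p = 6.51e-06), at least 10.0-fold with IDE2+FGF2 (3.81 ± 0.37, 3.97e-05; 3.20 without replicate 1 and 4.42 without replicate 2 of that group) and at least 25.9-fold with IDE2+FGF10 (5.18 ± 0.37, 5.13e-06). Nrp1, the co-receptor shared by class 3 semaphorins and vascular endothelial growth factor, stood at 5.97 and 6.43 in ES, 7.71 and 8.22 with IDE2, 7.53 and 7.98 with IDE2+FGF2, and 6.86 and 6.79 with IDE2+FGF10. IDE2 and IDE2+FGF2 overlapped each other and lay above IDE2+FGF10, which lay above ES. Nrp1 was 3.40-fold above ES with IDE2 (1.77 ± 0.32, adjusted p = 0.00121) and 2.94-fold with IDE2+FGF2 (1.56 ± 0.32, 0.00356, but 0.0537 without ES replicate 1), and 0.63 ± 0.32 with IDE2+FGF10 did not pass (0.133). Nrp2, Plxna3, Plxnc1 and Plxnd1 passed in no comparison.

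Among the Slits and Robos, Slit2 and Slit3 rose and Robo4 fell. Slit2, a secreted repellent of commissural axons, stood at 5.03 and 5.28 in ES, 8.78 and 9.64 with IDE2, 7.64 and 7.75 with IDE2+FGF2, and 7.86 and 7.65 with IDE2+FGF10. It was undetected in ES and highest on the IDE2 arrays, with the FGF groups overlapping. It was at least 11.9-fold above ES with IDE2 (4.06 ± 0.33, adjusted p = 9.24e-06), at least 4.19-fold with IDE2+FGF2 (2.55 ± 0.33, 0.000241) and at least 4.35-fold with IDE2+FGF10 (2.60 ± 0.33, 0.000131). Slit3, a paralogue of Slit2, stood at 4.76 and 4.97 in ES, 5.45 and 5.65 with IDE2, 5.99 and 7.04 with IDE2+FGF2, and 6.39 and 6.26 with IDE2+FGF10. Slit3 was at least 1.84-fold above ES with IDE2+FGF2 (1.65 ± 0.35, adjusted p = 0.00457) and at least 1.62-fold with IDE2+FGF10 (1.46 ± 0.35, 0.00631, but 0.0553 without ES replicate 1), and 0.69 ± 0.35 with IDE2 did not pass. The FGF arrays lay above the IDE2 arrays, and the Slit3 difference between them passed in neither comparison.

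Robo1, the main receptor of Slit2, stood at 9.03 and 8.90 in ES, 8.05 and 9.02 with IDE2, 8.79 and 8.31 with IDE2+FGF2, and 6.87 and 6.90 with IDE2+FGF10. Only the IDE2+FGF10 arrays stood clear of the others, 4.23-fold below ES (-2.08 ± 0.35, adjusted p = 0.000801). Robo4, the Robo of endothelial cells, stood at 10.68 and 10.86 in ES, 5.68 and 5.98 with IDE2, 8.75 and 8.58 with IDE2+FGF2, and 5.96 and 6.27 with IDE2+FGF10. ES was highest, IDE2+FGF2 intermediate, and the other groups overlapped at a low level. Robo4 was 30.7-fold below ES with IDE2 (-4.94 ± 0.28, adjusted p = 1.49e-06), 4.30-fold with IDE2+FGF2 (-2.10 ± 0.28, 0.000305) and 25.2-fold with IDE2+FGF10 (-4.65 ± 0.28, 2.20e-06). This rests on a single probe, since the other 2 Robo4 probes were detected on 0 arrays and lay between 4.58 and 5.08 throughout.

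Of 8 endothelial marker genes tested of 12 listed, 6 were lower and 1 higher with IDE2 than in ES, beside 21.9% and 22.6% of all tested probes. The mean log2 level of the list was 7.43 to 7.45 in ES, 6.02 to 6.07 with IDE2, 7.62 to 7.73 with IDE2+FGF2 and 6.14 to 6.27 with IDE2+FGF10. The defining markers Cdh5, Kdr and Tie1 were not detected on 2 arrays. The mean over 11 pluripotency genes was 11.99 to 12.01 in ES, 8.70 to 8.96 with IDE2, 9.94 to 9.97 with IDE2+FGF2 and 8.72 to 8.73 with IDE2+FGF10. The part of either list in the Robo4, Epha1 and Epha2 results was not tested.

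Of the netrins and Unc5 receptors, Unc5c and Unc5b rose against ES. Unc5c, a receptor that turns netrin-1 into a repellent, stood at 4.85 and 4.75 in ES, 8.24 and 8.38 with IDE2, 5.63 and 6.05 with IDE2+FGF2, and 7.66 and 7.55 with IDE2+FGF10. No pair of groups overlapped: IDE2 was highest, then IDE2+FGF10, then IDE2+FGF2, and it was undetected in ES. Unc5c was at least 6.39-fold above ES with IDE2 (3.51 ± 0.28, adjusted p = 8.83e-06), at least 3.91-fold with IDE2+FGF10 (2.80 ± 0.28, 3.20e-05) and at least 1.15-fold with IDE2+FGF2 (1.04 ± 0.28, 0.0157, but 0.0861 and 0.113 without ES replicate 1 and 2). Unc5b, the Unc5 receptor of vessels, stood at 7.22 and 6.61 in ES, 7.99 and 8.22 with IDE2, 8.50 and 8.23 with IDE2+FGF2, and 8.05 and 7.86 with IDE2+FGF10. Every differentiated array lay above ES, by 2.28-fold with IDE2 (1.19 ± 0.31, adjusted p = 0.00905), 2.73-fold with IDE2+FGF2 (1.45 ± 0.31, 0.00435) and 2.05-fold with IDE2+FGF10 (1.04 ± 0.31, 0.0181). Each of these calls was lost without ES replicate 2 (0.117, 0.069 and 0.191), and the last without IDE2+FGF10 replicate 1 or 2 as well (0.122 and 0.0703).

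Ntn4, a netrin of basement membranes, stood at 5.13 and 5.01 in ES, 6.26 and 6.02 with IDE2, 5.60 and 5.15 with IDE2+FGF2, and 5.05 and 4.95 with IDE2+FGF10, and it was undetected in ES and with IDE2+FGF10. Ntn4 was at least 1.42-fold above ES with IDE2 (1.07 ± 0.29, adjusted p = 0.0112, but 0.0595 and 0.0856 without ES replicate 1 and 2). Ntn5, another netrin, stood at 6.12 and 5.81 in ES, 5.12 and 4.93 with IDE2, 5.52 and 5.49 with IDE2+FGF2, and 5.12 and 5.40 with IDE2+FGF10, and was at least 1.46-fold lower with IDE2 (-0.94 ± 0.28, 0.019, but 0.157 and 0.0587 without ES replicate 1 and 2). Ntn3 lay between 7.16 and 7.91 on the 8 arrays and passed in no comparison.

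The comparison of IDE2+FGF2 with IDE2 asks what followed when IDE2 was replaced by FGF2 for the last 5 days. Loss of IDE2 and addition of FGF2 cannot be told apart in it. Of the 57 guidance probes, 15 passed (6 higher, 9 lower), 26.3% of them beside 6.68% of all tested probes (3.26% higher, 3.42% lower). Their median log2 difference was -0.05, beside 0.0038 over all probes. Robo4 was 7.15-fold higher (2.84 ± 0.28, adjusted p = 0.000397), Epha1 7.07-fold (2.82 ± 0.36, 0.00198), Efna1 3.62-fold (1.86 ± 0.32, 0.00922) and Epha2 2.87-fold (1.52 ± 0.33, 0.0256). Epha7 was 12.8-fold lower (-3.67 ± 0.36, 0.000395), and its other 2 probes fell too. Unc5c was 5.54-fold lower (-2.47 ± 0.28, 0.000948), Sema3a 5.40-fold (-2.43 ± 0.39, 0.00685), Sema3f 3.61-fold (-1.85 ± 0.35, 0.0148), Ephb1 3.28-fold (-1.72 ± 0.37, 0.025) and Slit2 2.85-fold (-1.51 ± 0.33, 0.0257). So the calls of the Eph receptor tyrosine kinases went both ways, with Epha1 and Epha2 higher and Epha7 and Ephb1 lower. The Slit2 call was lost in 11 of 19 alternatives and the Epha2 call in 10 of 19, for both genes among them those without either ES array. The Ephb1 call was lost in 6 of 19. The calls of Robo4, Unc5c and the brightest Epha7 probe held in all alternatives run. Without IDE2 replicate 2, 7 of the 15 calls held and without IDE2+FGF2 replicate 2, 5 of them, and the brightest Epha1 probe missed the threshold in the latter case only (adjusted p = 0.0568). The other 2 Epha1 probes called here missed it both without IDE2 replicate 2 (0.0548 and 0.136) and without IDE2+FGF2 replicate 2 (0.0847 and 0.173). Without IDE2 replicate 1, Sema3a differed by -3.08 and without replicate 2 by -1.79.

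In the same comparison 4 of 8 tested endothelial genes were higher and none lower, beside 3.26% and 3.42% of all tested probes. Among them were Emcn (at least 13.3-fold), Plvap (12.5-fold), Eng (at least 5.23-fold) and Esam (4.44-fold). Of 11 pluripotency genes 5 were higher and none lower, with Utf1 at 13.5-fold and Pou5f1 at 5.09-fold. Their part in the Robo4, Epha1 and Epha2 differences was not tested.

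**Figure D3:**
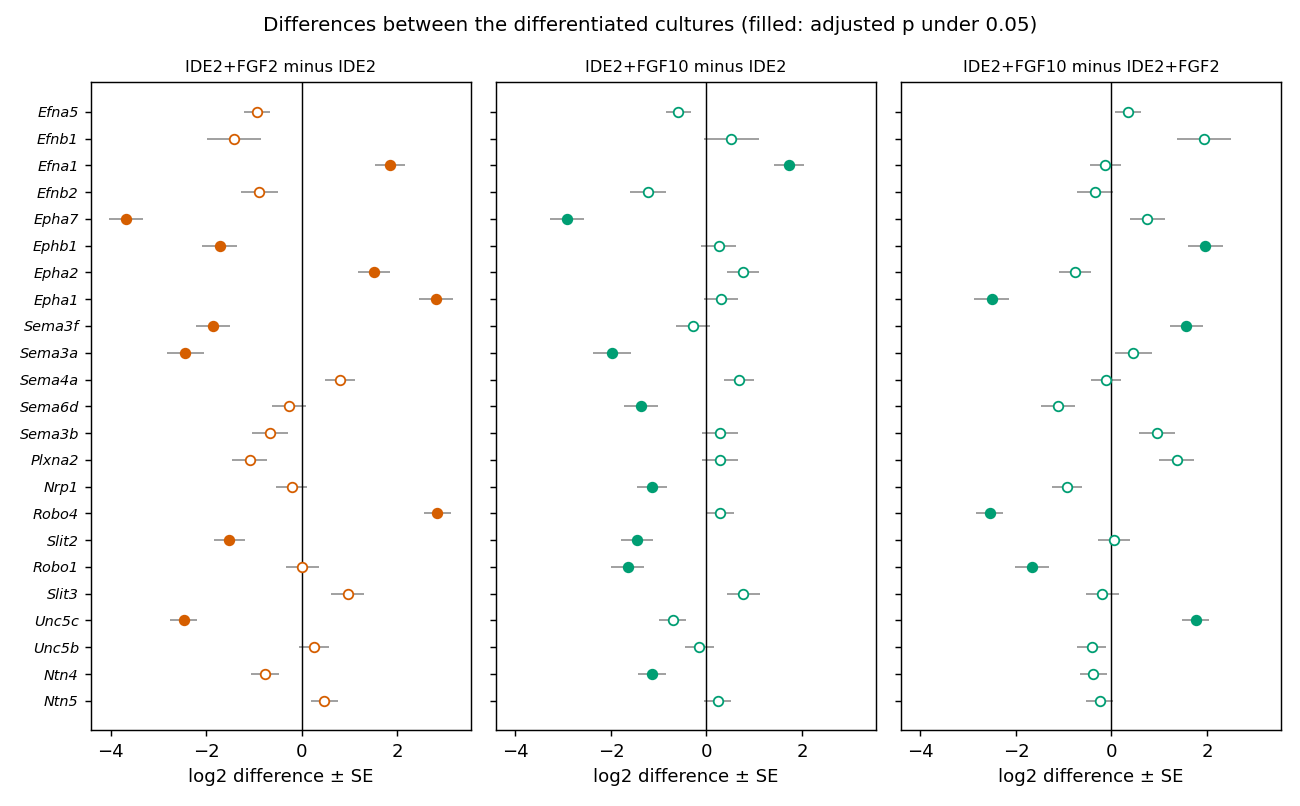
Log2 difference ± SE (horizontal axis) between the differentiated groups for the same 23 genes at their brightest probe, with 2 arrays a group; a filled point passed the test and an open point did not. Robo4 and Epha1 lie to the right and Epha7 and Unc5c to the left for IDE2+FGF2 minus IDE2.

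The comparison of IDE2+FGF10 with IDE2 asks the same of FGF10, at its lower dose. Of the 57 probes 12 passed against IDE2 (2 higher, 10 lower), 21.1% beside 12.5% of all tested probes (3.74% higher, 8.81% lower), with a median difference of 0.24 beside 0.057. Efna1 was 3.31-fold higher (1.73 ± 0.32, adjusted p = 0.0114), as was Sema4f, a brain-enriched class 4 semaphorin, by 2.77-fold (1.47 ± 0.28, 0.0124). Epha7 was 7.58-fold lower (-2.92 ± 0.36, 0.00588), Sema3a 3.93-fold (-1.97 ± 0.39, 0.0137), Robo1 3.14-fold (-1.65 ± 0.35, 0.0167), Slit2 2.74-fold (-1.45 ± 0.33, 0.0198) and Nrp1 2.20-fold (-1.14 ± 0.32, 0.0397). Sema6d (at least 1.84-fold, -1.38 ± 0.36, 0.0318) and Ntn4 (at least 1.31-fold, -1.14 ± 0.29, 0.0278) were also lower. None of the 12 calls held without IDE2 replicate 2 (adjusted p from 0.0629 to 0.241), without IDE2+FGF10 replicate 1 (0.0681 to 0.191) or replicate 2 (0.0725 to 0.243), or when the 4 arrays were fitted alone (0.0917 to 0.124). All 12 held without IDE2 replicate 1, 11 without either IDE2+FGF2 array and 8 without either ES array. The Sema3a difference was -2.62 without IDE2 replicate 1 and -1.33 without replicate 2.

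Between the FGF groups, 11 of the 57 probes passed (6 higher and 5 lower with IDE2+FGF10), 19.3% beside 6.63% of all tested probes (2.65% higher, 3.98% lower), with a median difference of 0.08 beside 0.015. Robo4 was 5.86-fold lower with IDE2+FGF10 than with IDE2+FGF2 (-2.55 ± 0.28, adjusted p = 0.00113), Epha1 5.70-fold (-2.51 ± 0.36, 0.00439) and Robo1 3.18-fold (-1.67 ± 0.35, 0.0223). Ephb1 was 3.91-fold higher (1.97 ± 0.37, 0.0154), Unc5c 3.40-fold (1.76 ± 0.28, 0.00704), Sema3f 2.97-fold (1.57 ± 0.35, 0.0277) and Sema4f 2.66-fold (1.41 ± 0.28, 0.0188). The probes of Epha7 and Nrp1 split: 1 of 3 Epha7 probes was higher (1.83 ± 0.42, 0.0297) and 1 of 2 Nrp1 probes lower (-1.60 ± 0.35, 0.0263). The Robo4 call held in all alternatives run. Of the 11 calls, 6 held without either ES array, 3 without IDE2+FGF2 replicate 2, 3 without IDE2+FGF10 replicate 1 and 1 without IDE2+FGF10 replicate 2. With arrays scaled to a common median, 4 probes were higher and 8 lower, against 6 and 5 here. Endothelial genes moved with Robo4 here too, with 4 of 8 lower with IDE2+FGF10 and none higher, and 5 of 11 pluripotency genes were lower and none higher; their part was not tested.

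Sema4f, singled out after its values were seen, stood at 6.63 and 6.65 in ES, 5.36 and 5.40 with IDE2, 5.22 and 5.66 with IDE2+FGF2, and 6.95 and 6.75 with IDE2+FGF10. The IDE2+FGF10 arrays lay above ES and the other differentiated arrays below it. With IDE2+FGF10 the Sema4f change against ES was 0.22 and did not pass. Its change against ES was 2.39-fold lower with IDE2 (-1.26 ± 0.28, adjusted p = 0.00453) and 2.29-fold lower with IDE2+FGF2 (-1.19 ± 0.28, 0.00816, lost without either ES array), with 1 of 2 arrays detected in each of these groups.

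The partners of these receptors were read from lists of co-receptors and other cues and of intracellular mediators. Of 21 co-receptors and other cues 12 could be tested, with 9, 7 and 7 higher than ES and none lower with IDE2, IDE2+FGF2 and IDE2+FGF10, beside 22.6%, 16.5% and 21.2% of all tested probes higher. Their median log2 change was 2.18, 1.67 and 1.52, beside -0.0057, -0.017 and -0.0077 over all tested probes. Cxcl12, a chemokine that attracts migrating neurons and blood cells, was 19.4-fold, 21.9-fold and 13.6-fold higher (adjusted p = 8.83e-06, 9.43e-06 and 1.83e-05), and Flrt3, an adhesion molecule that binds Unc5 receptors, 15.9-fold, 3.06-fold and 3.73-fold. Between media, Flrt3 was lower than with IDE2 by 5.19-fold with IDE2+FGF2 (adjusted p = 0.00586) and 4.25-fold with IDE2+FGF10 (0.0104). With IDE2+FGF2 the other widest rise was Flrt2 (at least 3.84-fold), and with IDE2+FGF10 it was Gpc1, a heparan sulfate proteoglycan that binds Slits (7.44-fold).

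Of 43 intracellular mediators 28 could be tested, with 8 higher and 5 lower with IDE2, 7 and 4 with IDE2+FGF2, and 8 and 4 with IDE2+FGF10. That is 46.4%, 39.3% and 42.9% of the tested mediators, beside 44.4%, 33% and 43.3% of all tested probes, and so near the share of the array as a whole. Dpysl2, the collapsin response mediator that relays Sema3a signals, was 13.1-fold, 13.9-fold and 15.1-fold higher (adjusted p = 6.76e-06, 8.97e-06 and 5.65e-06). Nck2, an adaptor that links guidance receptors to actin, was 4.77-fold higher with IDE2 and 4.22-fold with IDE2+FGF2, and Dpysl5, a relative of Dpysl2, was 5.46-fold higher with IDE2+FGF10. Mical1, an oxidase that acts downstream of plexins on actin, was 4.18-fold, 2.83-fold and 3.82-fold lower. Crmp1, another collapsin response mediator, was 5.05-fold lower with IDE2 and 6.88-fold with IDE2+FGF10, and Cfl1, the actin-severing cofilin, was 2.55-fold lower with IDE2+FGF2.

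Of the 95 probes matched, 38 were not kept: 29 were detected on 0 arrays and 9 on 1 array. The genes left without a kept probe were Efna2, Epha4, Epha5, Epha6, Epha8, Epha10, Ephb6, Ntn1, Plxna1, Plxna4, Plxnb1, Plxnb3, Robo2, Sema3e, Sema3g, Slit1, Unc5a and Unc5d. Just inside the rule, 8 probes were detected on exactly 2 arrays, with a brightest level of 5.72 to 6.52, and just outside it the 9 probes on 1 array had a brightest level of 5.38 to 6.79. At the other end, 18 of the 57 kept probes were detected on all 8 arrays.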

How the data were processed

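RNA of 8 samples was hybridised to Illumina mouse BeadChips, and the intensities per probe with their detection p-values were deposited by the authors without normalization, per the file headers; BeadStudio is named in the submitters' processing notes, with no version. A second deposited table of quantile-normalized intensity values served as an alternative. The number of beads behind a probe had a median of 38 to 40 per array. Background correction from the detection p-values (normexp, offset 16), quantile normalization and log2 were done with neqc in limma 3.58.1 (R 4.3.3). The 14502 probes with a detection p-value under 0.05 on 2 or more arrays were fitted with 1 mean per group over all 8 arrays (4 residual degrees of freedom, prior 6.955) and tested by limma's moderated test with Benjamini-Hochberg adjustment in 6 comparisons. Probes, not genes, were tested because the members are probes; a gene is described by its brightest probe. Values per array are given for up to 5 genes per family with the widest range of group means among genes that passed in at least 1 comparison, and for partners up to 2 rises and 2 falls per list and comparison with ES. The members and lists were chosen with earlier results of these data known. The labels do not say whether same-numbered arrays were paired. After normalization, deviations from group means of same-numbered arrays correlated at -0.042 to 0.0078. This cannot exclude a shared shift that normalization removes. Before normalization the median signal was higher on replicate 2 than on replicate 1 in each group. It was 173.4 against 117.3 in ES and 162 against 129.9 with IDE2. It was 175.4 against 137 with IDE2+FGF2 and 133.2 against 129.5 with IDE2+FGF10. The code was tested on simulated data. Gene symbols are those of the platform annotation, and all 95 matched RefSeq (GRCm38.p6) by gene identifier; the array positions of probes were not used here. Promoter sequences are RefSeq's.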

Additional observations from a re-analysis of the deposited data

How the results depend on the processing

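No guidance probe that passed the test changed sign under any of the 19 alternatives run. The stricter detection filter and the fit of 1 probe per gene left some probes out, so a call met 17 to 19 alternatives. Of the 122 calls over the 6 comparisons, 52 held in every alternative that tested the probe: 20 of 32 for IDE2, 12 of 28 for IDE2+FGF2 and 16 of 24 for IDE2+FGF10 against ES, 3 of 15 and 0 of 12 in the FGF2 and FGF10 media set against IDE2, and 1 of 11 between the FGF groups. Leaving out each array in turn gave 21 to 34, 16 to 30, 19 to 24, 5 to 19, 0 to 15 and 1 to 13 calls in that order. The counts of 0, for IDE2+FGF10 against IDE2, came without IDE2 replicate 2 and without IDE2+FGF10 replicate 1 or 2, where limma gave 14, 13 and 18 guidance probes at an unadjusted p under 0.05, and with only the arrays of the compared groups fitted, where it gave 20. That last setting left 4 calls between the FGF groups. Array weights left 5 for IDE2+FGF2 against IDE2, as did leaving out replicate 2 of both groups. No background correction and no detection filter each left 7 between the FGF groups. Against ES, IDE2 had 24 and 21 calls and IDE2+FGF2 16 and 17 without ES replicate 1 and 2. With the replicate number as a block, which the labels do not tie to shared cultures, 32, 26, 23, 15, 12 and 12 passed. The remaining alternatives (median scaling, the second deposited table, a stricter detection filter, an intensity trend with robust estimation, 1 probe per gene) kept each count within 1.5 times. Fold sizes moved as well. Over the alternatives, the change with IDE2 against ES ran from 7.72-fold to 30.3-fold for Plxna2 and from 5.17-fold to 26.5-fold for Efnb1. It ran from 4.7-fold to 22.4-fold for Slit2, 24.4-fold to 42.1-fold for Efna5 and 10.5-fold to 34.1-fold for Robo4. For Plxna2, Efnb1 and Slit2 the lowest of these lay below the "at least" fold given above. The causes of these shifts were not tested.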

Other observations

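Robo4 has neighbours in the RefSeq gene order that passed in the same comparisons, some lower and some higher; this was looked up after the Robo4 values were seen. Of the 8 protein-coding genes on each side of it and Robo4 itself, 17 in all, 15 have a probe and 11 could be tested, and against ES with IDE2 5 of the 11 (Robo4 included) were lower and 3 higher, beside 21.9% and 22.6% of all tested probes. Esam, an endothelial adhesion molecule 3 genes away, stood at 10.91 and 10.87 in ES, 6.84 and 6.45 with IDE2, 8.94 and 8.66 with IDE2+FGF2, and 6.91 and 7.07 with IDE2+FGF10. As for Robo4, ES was highest, IDE2+FGF2 intermediate and the other groups low. Esam was 18.9-fold, 4.26-fold and 14.9-fold lower than ES in that order, where Robo4 was 30.7-fold, 4.30-fold and 25.2-fold lower. Vsig2, the next gene along, was 6.48-fold, 4.59-fold and at least 4.99-fold lower, and Nrgn, the gene of neurogranin beyond it, at least 2.19-fold, 2.27-fold and at least 1.74-fold lower. Further along that side Siae and Tbrg1 passed in none of the comparisons with ES. On the other side Pknox2, 5 genes away, was 7.10-fold, 3.50-fold and 5.73-fold higher and Tmem218 1.92-fold, 2.89-fold and 3.67-fold higher. Fez1 was 1.77-fold higher with IDE2 and 2.17-fold with IDE2+FGF10, Ei24 was 2.10-fold and 1.77-fold lower in those groups, and neither passed with IDE2+FGF2. Stt3a passed in none of these comparisons. No probe was annotated to Robo3, and the probes of Msantd2 and Hepacam were not detected on 2 arrays. Against IDE2, IDE2+FGF2 was 7.15-fold higher for Robo4 and 4.44-fold higher for Esam.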
